A study of Mus musculus with 3 samples.

Results

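Broad domains of H3K36me3 were taken as the peaks of the deposited peak table with a length of at least 10000 bp. In mouse regulatory T (Treg) cells, 606 of 120910 peaks (0.501%) met this rule, and they covered 8.44 of the 116 Mb under all peaks (7.28%). H3K36me3 had been profiled by chromatin immunoprecipitation sequencing (ChIP-seq) in CD3+CD4+Foxp3-YFP+ Treg cells sorted from the spleen (SP) or the large intestine (LI) of C57BL/6 mice at steady state. Both groups came from Foxp3 Cre-YFP mice, in which the Foxp3 locus drives a fusion of Cre and the yellow fluorescent protein, and Setd2 was intact in both. Each tissue had 1 library, made from cells pooled over several male and female mice, so the differences given here separate 2 libraries and were not checked by replicates. The third library, an input of splenic Treg chromatin, was not analysed here.

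H3K36me3 is the trimethylation of lysine 36 on histone H3. In mammals Setd2 places most of it while travelling with elongating RNA polymerase II, so that the mark builds up along the bodies of transcribed genes and towards their 3′ ends and is scarce at active promoters. Treg cells are the CD4+ T cells that express Foxp3 and restrain immune responses, in the intestine among other tissues.

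The peaks of all lengths gave the frame for the broad domains. The deposited values are the mean read coverage over a peak per kilobase, scaled to sequencing depth (RPKM). With coverage bins assumed to be 20 bp wide, the size of 1 read step corresponded to about 29600000 mapped reads in SP and 38100000 in LI. Summed over all peaks, the large intestine values were 1.03 times those of spleen, and all log2 ratios below are large intestine over spleen after scaling to these sums. All 7 genes of the Treg and T cell marker list had peaks, with summed values of 1340 RPKM in SP and 1192 RPKM in LI. Ptprc, which is not restricted to T cells, gave 698 and 508 RPKM of these sums over 59 peaks. The sums add differing numbers of peaks, so they are not compared between lists. Of 9 epithelial markers 4 had a peak, with 62.4 and 106.8 RPKM, and Krt8, Krt18, Krt19, Cdh1 and Muc2 had none. Of 6 B cell markers 3 had a peak (60.2 and 53.4 RPKM), while Ms4a1 and Ebf1 had none, and of 7 myeloid markers 2 had a peak (29.7 and 31.3 RPKM). Broad domains lay over 2 genes of the Treg and T cell list, Cd4 and Ptprc, and over 0 of the epithelial, B cell and myeloid markers.

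For a view of the sequence under the mark, 150 bases at the centre of 5 domains are given from GRCm38, the assembly of mm10, on the strand of the gene, 5′ to 3′, with CG dinucleotides in capitals. Asb2, Fosl2 and Osbpl3 carried the domains whose signal was more than 2-fold higher in large intestine, and Plec and Ccnl1 carried the domains with the highest and the lowest GC content, a property with which the ratio moved. The Asb2 window (chr12:103325224-103325373, minus strand) lies in a coding exon and holds 14 CG dinucleotides, and the Fosl2 window (chr5:32150343-32150492, plus strand) crosses from an intron into a coding exon and holds 5. The Osbpl3 window (chr6:50344292-50344441, minus strand) and the Plec window (chr15:76182687-76182836, minus strand) are intronic and hold 0 and 3. The Ccnl1 window (chr3:65951559-65951708, minus strand) lies in an exon of a transcript with a retained intron and holds 0.
Asb2: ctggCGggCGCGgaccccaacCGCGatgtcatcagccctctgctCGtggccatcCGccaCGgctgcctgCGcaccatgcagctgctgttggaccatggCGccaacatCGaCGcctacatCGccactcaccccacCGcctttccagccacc
Fosl2: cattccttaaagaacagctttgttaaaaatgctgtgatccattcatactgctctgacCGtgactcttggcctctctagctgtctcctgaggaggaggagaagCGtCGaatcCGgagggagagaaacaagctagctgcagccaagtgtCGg
Osbpl3: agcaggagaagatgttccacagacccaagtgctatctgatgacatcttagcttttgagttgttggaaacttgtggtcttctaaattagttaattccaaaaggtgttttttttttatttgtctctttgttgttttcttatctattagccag
Plec: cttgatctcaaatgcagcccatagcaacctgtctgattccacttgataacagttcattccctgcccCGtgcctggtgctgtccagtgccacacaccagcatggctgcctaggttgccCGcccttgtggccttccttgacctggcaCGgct
Ccnl1: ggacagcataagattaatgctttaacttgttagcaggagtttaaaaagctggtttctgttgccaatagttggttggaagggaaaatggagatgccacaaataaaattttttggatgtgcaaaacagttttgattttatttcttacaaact

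Broad domains lay mostly inside protein-coding genes, in their later part. Of the 606 domains, 605 overlapped a protein-coding gene of the GENCODE M21 annotation, and 97.7% of their bases lay in the bodies of such genes, against 96.4% for the 27539 peaks of 1 to 10 kb. The exception was a domain of 12988 bp on chromosome 6 (31160367 to 31173354), with 23.5 RPKM in SP and 23.4 RPKM in LI. A domain was assigned to the coding gene it overlapped most, which gave 555 genes. Of these, 42 carried more than 1 domain, and Trrap, a scaffold of histone acetyltransferase complexes, and Dock2, an activator of Rac in leukocytes, carried 4 each.

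Only the very start of genes was nearly free of broad domains. Of the 605 domains, 0.66% covered the position at 2.5% of the gene body, 10.4% that at 12.5% and 22.8% that at 22.5%. The share rose to 62.3% at 77.5% and was 50.2% at 97.5%. The edge nearer to the gene start lay a median of 15.9 kb inside the gene, against 24.4 kb for peaks of 1 to 10 kb. It lay within 1 kb of the start in 14 domains, within 2 kb in 53 and within 5 kb in 148 (24.5%, Wilson 95% interval over domains 21.2% to 28.0%). The Rbm39 domain was the only one that began before the start of its gene, by 65 bp. The middle of the domain lay past the middle of the gene in 515 domains (85.1%), against 68.6% of peaks of 1 to 10 kb. Its median position was at 70.4% of the gene in domains and at 66.7% in those peaks.

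**Figure D1:**
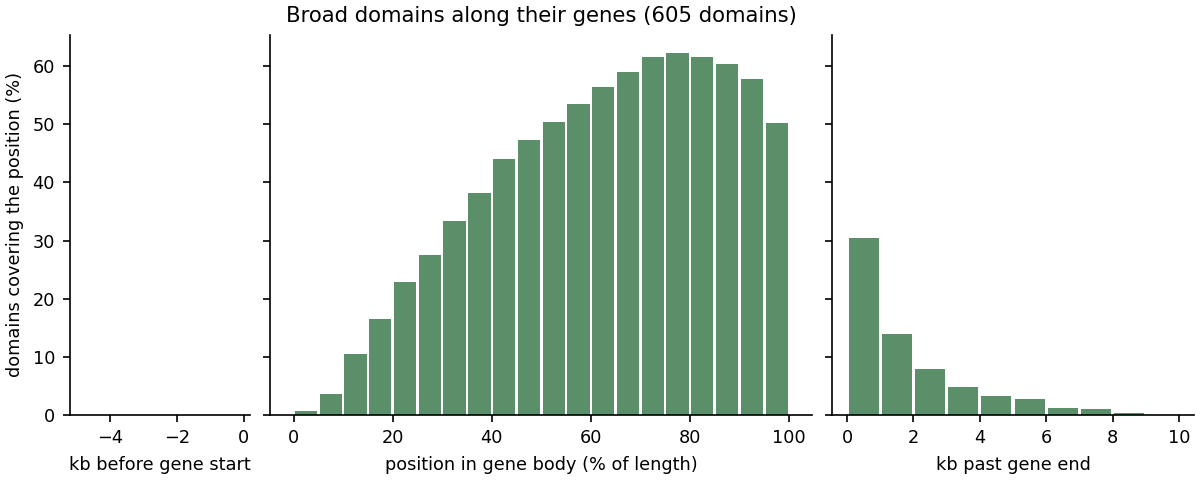
Share of the 605 broad domains (%, vertical axis) that covered each position along the assigned gene, in kb before the gene start, in % of the gene body, and in kb past the gene end. The share is 0.66% at the first position of the body, peaks at 62.3%, and falls to 13.9% at 1.5 kb past the end.

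Gene starts lay inside 17 domains (2.81%, Wilson 95% interval 1.76% to 4.45%) and gene ends inside 255 (42.1%, 38.2% to 46.0%), while 346 (57.1%) held neither and lay wholly within gene bodies. Among peaks of 1 to 10 kb, 0.592% held a start and 8.37% an end. Longer intervals have more room for an end, however, and per length the values lay close together, with 41.0 coding gene ends per Mb in broad domains and 40.3 per Mb in the shorter peaks, against 8.05 per Mb of the genome. For starts they were 2.01 and 2.43 per Mb. All of these starts but that of Rbm39 belonged to a neighbouring or nested gene. They included Insl3 in the domain of Jak3, a cytokine receptor kinase, and Rilp in that of Prpf8, a core protein of the spliceosome.

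The genes under broad domains had a median length of 32.3 kb, against 24.2 kb for 6637 coding genes, counted by identifier, that were assigned a peak of 1 to 10 kb but no broad domain, of which 5274 were at least 10 kb long and so had room for one. Of the genes with a domain, 5 were shorter than 10 kb, and in each of them (Sbds, Pmpca, Tor1a, Ppp4c and Eif2b1) the domain ran on into a neighbouring gene. A domain covered a median of 36.2% of its gene. Above 50% of the gene was covered by 212 domains and above 90% by 14, and Ncln, which encodes the endoplasmic reticulum protein nicalin, was covered to 99.7%. Kmt2b, a histone H3 lysine 4 methyltransferase, was covered to 93.6%.

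Exons made up a median of 25.4% of the gene bases inside a domain and 13.4% of the bases in the rest of the same gene, and the share was higher inside the domain in 418 of 598 domains (69.9%). Pooled over all bases, exons made up 26.4% of broad domains and 25.4% of peaks of 1 to 10 kb. The median GC content of broad domains was 49.7% (37.0% to 60.0%), and that of peaks of 1 to 10 kb was 46.4%. CG dinucleotides occurred 14.5 times per kb in broad domains and 13.2 times in the shorter peaks, at 0.238 of the number expected from base composition in both. Repeats, as marked in the assembly, made up a median of 15.6% of a domain and 16.7% of a shorter peak.

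Past the gene end, the extent of the domains varied. Of the 605 assigned domains, 223 ran past the end of their gene, by a median of 1.13 kb (middle 50% from 0.59 to 2.25 kb), and 382 stopped before it, by a median of 6.58 kb. In 278 domains (46.0%) the edge lay within 2 kb of the gene end on either side. Where the part past the end overlapped no further coding gene, the reach had a median of 0.80 kb (135 domains), and the farthest was that of Cd2, a T cell adhesion receptor, at 5.13 kb. Where it overlapped a coding gene on the other strand, the median was 2.56 kb (83 domains) and the highest 9.20 kb. The remaining 5 domains met a coding gene on the same strand, with a median of 1.29 kb. Because a longer reach meets more genes, the classes and the reach are not independent.

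**Figure D2:**
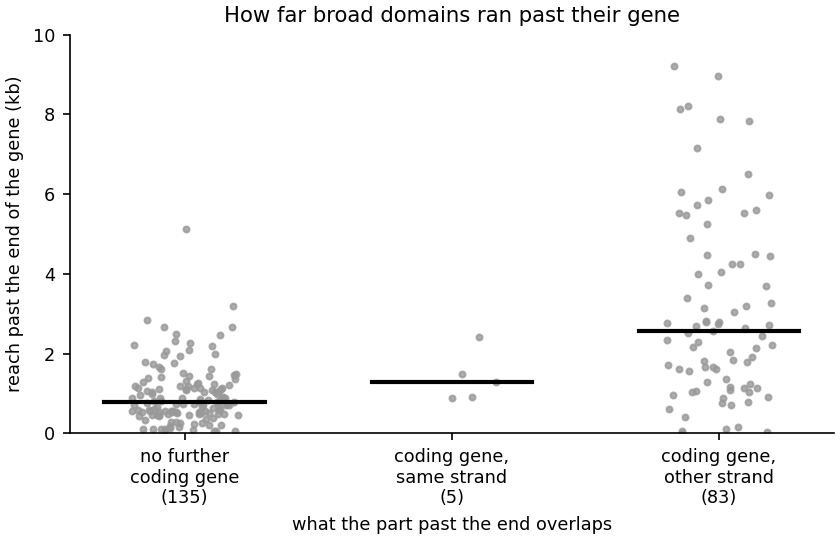
Reach of 223 broad domains past the end of their gene (kb, vertical axis) by what the part past the end overlapped, 1 point a domain and a bar at the median. The medians are 0.80 kb with no further coding gene, 1.29 kb with a gene on the same strand and 2.56 kb with a gene on the other strand.

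The domains that reached farthest joined 2 genes that run towards each other. Pcif1, an enzyme that modifies mRNA caps, was exceeded by its domain by 9.20 kb, which took in the 3′ part of Zfp335. The domain had 36.2 RPKM in SP and 43.0 RPKM in LI. Unk, an RNA-binding protein, followed with 8.95 kb into Unc13d, which serves the release of cytotoxic granules. Flii, an actin-remodelling protein, was exceeded by 8.20 kb into Llgl1, a cell polarity gene. Hip1r, which links clathrin to actin, was exceeded by 8.13 kb into Vps37b, and Sbds, a ribosome maturation factor, by 7.89 kb into Tmem248.

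In all, 84 domains (13.9%, Wilson 95% interval 11.3% to 16.8%) held the ends of at least 2 coding genes, and each of the 84 held at least 1 pair of ends facing each other from opposite strands. Unless genes overlap, 2 ends on the same strand need a gene start between them. Only 17 domains held a gene start, so the facing ends were largely given by gene layout. Of peaks of 1 to 10 kb, 1.59% held at least 2 ends. The median log2 ratio of the 84 domains was 0.10, against 0.06 in the 171 domains with 1 end and 0.06 in the 351 with 0. The pairs included genes of Treg signalling. Stat5a and Stat3, transcription factors of cytokine receptors that lie end to end, shared a domain of 13968 bp with 24.2 RPKM in SP and 35.5 RPKM in LI (log2 ratio 0.50, approximate 95% counting interval 0.39 to 0.61). Pik3cd, a kinase subunit of antigen receptor signalling, shared one with Clstn1, at 39.5 and 39.2 RPKM.

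Setd2, the gene of the H3K36 methyltransferase, ended inside such a domain. It ran over 26156 bp (chromosome 9, 110616942 to 110643097) from the body of Nbeal2, a gene needed for platelet granules, through the small gene Nradd into the last part of Setd2. Its value was 37.6 RPKM in SP and 51.3 RPKM in LI, with a log2 ratio of 0.40 (0.33 to 0.46) and of 0.20 after correction for GC content. The next peak on the Setd2 side, of 3715 bp, had 12.5 RPKM in SP and 11.7 RPKM in LI. Both tissues thus had less signal there than inside the domain.

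The other domains that touched the most coding genes were counted partly through read-through gene models, which join neighbouring genes into 1 annotation. The domain over Lrch4, Sap25 and Irs3 was assigned to the model Gm20605 (36.4 and 40.2 RPKM), and those of Cmtr1 and Gse1 lay also in the models Gm28043 and Gm20388. Coro7, an actin regulator of the Golgi, had a domain that also held the end of Vasn and lay within the annotated span of Dnaja3 (22.4 and 25.7 RPKM).

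The signal of broad domains was high and similar in the tissues. The median was 24.5 RPKM in SP (lowest 8.15, highest 63.3) and 26.6 RPKM in LI (11.1 to 77.8), against 13.9 and 14.4 RPKM in peaks of 1 to 10 kb. Signal rose with peak length over the whole table, from 8.93 RPKM in SP and 9.03 RPKM in LI in peaks under 0.5 kb, through 12.5 and 12.8 RPKM at 1 to 2 kb, to 19.7 and 21.4 RPKM at 5 to 10 kb. Among the domains themselves, length and signal were only weakly related (Spearman rho 0.13 in both libraries, across 606 domains). Broad domains held 12.6% of the length-weighted signal of all peaks in spleen and 13.0% in large intestine. Across the domains the values of the libraries had a Spearman rho of 0.86, which describes 2 libraries and not replicates.

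In most genes with several peaks the domain had more signal than the others. For 316 domains whose gene held at least 3 further peaks of 1 to 10 kb, the domain value was a median of 1.26 times the mean of those peaks in spleen and 1.28 times in large intestine. It was the higher value in 288 domains in spleen and in 291 in large intestine. Domains were chosen by length, and signal rose with peak length over the whole table, so this comparison is not independent of the choice. The log2 ratio of the domain and that of the other peaks of its gene had a Pearson r of 0.83 and a Spearman rho of 0.79 across the 316 domains, with a median absolute difference of 0.08. These points share their libraries and, within a gene, much of their base composition.

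The 5 domains with the highest mean of both libraries after scaling were those of Plec, Myh9, Akna, Fasn and Notch1. Plec, which encodes the cytolinker plectin, had 63.3 RPKM in SP and 77.8 RPKM in LI over 24327 bp, and 60.7% of its domain was exonic. Myh9, a heavy chain of non-muscle myosin, followed with 63.0 and 65.3 RPKM. Akna, a gene of an AT-hook protein, had 55.6 and 60.4 RPKM, and Fasn, the fatty acid synthase, had 51.3 and 61.6 RPKM. Notch1, a receptor that instructs T cell fate, had 48.0 and 61.3 RPKM. The value was higher in large intestine in all 5, but after correction for GC content it was close to equal for Fasn (log2 ratio 0.01) and lower in large intestine for Akna (from 0.07 to -0.09) and Myh9 (from 0.01 to -0.17).

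Domain length had a median of 12.3 kb, and 54 domains were at least 20 kb long. Among the longest, that of Chd2, a chromatin remodeller, had 39606 bp at 26.9 RPKM in SP and 26.6 RPKM in LI. Myh9 (35513 bp), Prrc2b (35113 bp), and the actin disassembly factor Wdr1 (34902 bp) came next, with the Wdr1 domain covering 93.0% of its gene.

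Of the other long domains, that of Dock8, an activator of Cdc42 in leukocytes, had 28.0 and 26.5 RPKM over 34564 bp, and began only at 82.8% of a gene of 202.9 kb. Dync1h1, the dynein heavy chain, had 28.3 and 34.2 RPKM, and Iqgap1, a scaffold of the actin cytoskeleton, had 23.8 and 28.4 RPKM. Nfatc1, the calcium-dependent transcription factor of T cell activation, carried 3 domains with log2 ratios of 0.26, 0.30 and 0.19, and the longest of them had 28.5 and 35.4 RPKM over 30924 bp. Tnip1, a partner of the NF-kB inhibitor A20, had 42.8 and 41.7 RPKM in a domain that also held the end of Gpx3.

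At the limit of length, values on both sides overlapped. The shortest domains included those of Lnx2 (10002 bp, 23.8 RPKM in SP and 26.0 RPKM in LI) and Papola (10015 bp, 16.5 and 19.1 RPKM). Just below the limit lay peaks of Isy1 (9999 bp, 20.4 and 26.2 RPKM), Tars (9996 bp, 19.9 and 21.9 RPKM) and Npm1 (9990 bp, 13.6 and 10.5 RPKM). Where a domain ends also rests on how peaks were joined. The gap to the nearest peak had a median of 126 bp and was at most 500 bp in 572 domains. Joining peaks within 200 bp gave 1514 stretches of at least 10 kb, and joining within 1000 bp gave 4123.

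**Figure D3:**
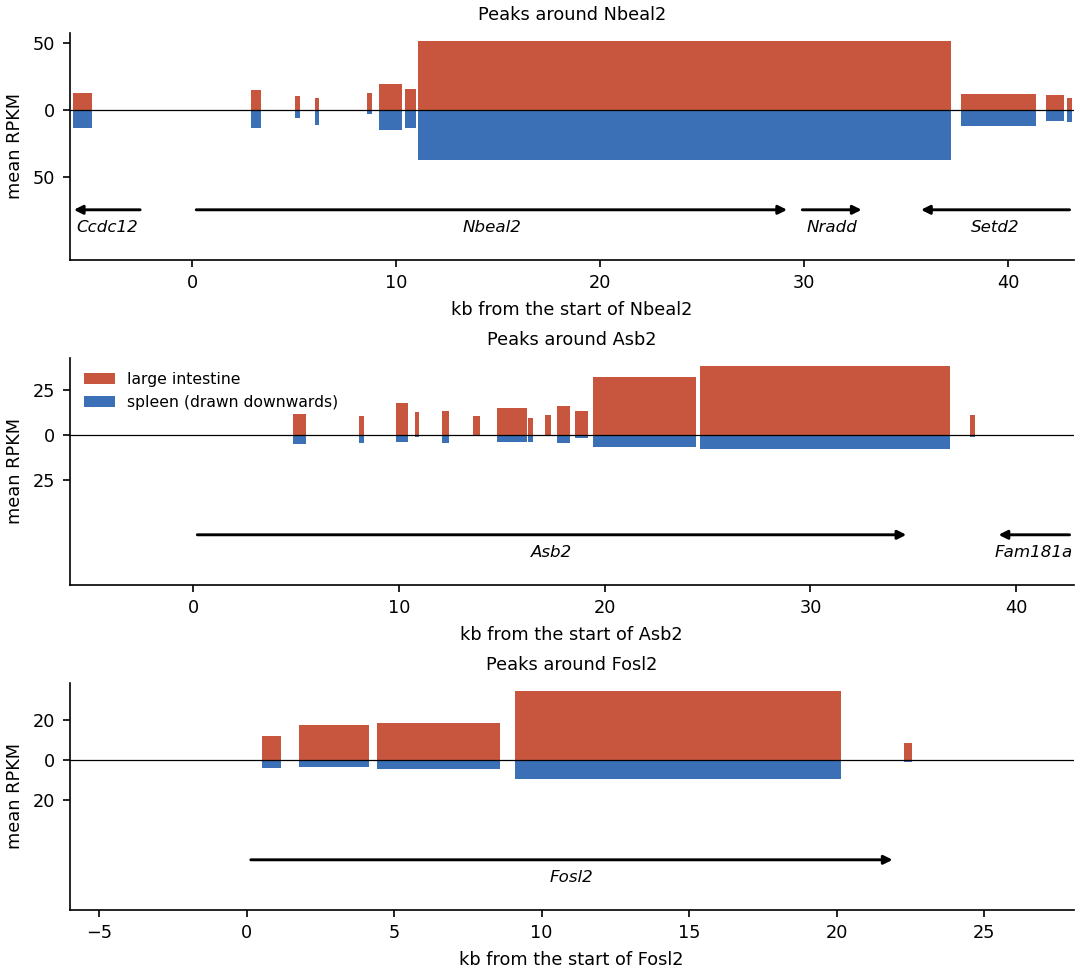
Peaks around Nbeal2, Asb2 and Fosl2, as mean RPKM in large intestine (upwards) and spleen (downwards) against the distance in kb from the start of each gene, with arrows for coding genes in their direction of transcription. The Nbeal2 domain has 37.6 RPKM in SP and 51.3 RPKM in LI, whereas the Asb2 and Fosl2 domains have 38.1 and 34.3 RPKM in large intestine against 8.15 and 9.57 RPKM in spleen.

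To see whether broad domains differed between Treg cells of the tissues, the log2 ratio was taken for each. It was small in most. In a pool of sorted cells, less of the mark per cell and fewer cells with the mark cannot be told apart. The median was 0.07, the middle 50% lay between -0.07 and 0.20, and the range was -0.64 to 2.11. The value was higher in large intestine in 390 domains and in spleen in 216. The SD of the ratio was 0.24 across broad domains, 0.39 across peaks of 1 to 10 kb and 0.98 across peaks under 0.5 kb, where counting alone gave a median standard error of 0.73, against 0.06 in broad domains. The approximate 95% counting interval, which covers counting error only, lay above 0 in 235 domains, below 0 in 104 and included 0 in 267. These intervals are of ratios before correction for GC content. The counts stand without a share over all peaks, so they are not read as a trait of broad domains.

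The ratio moved with GC content. It had a median of -0.04 in the 202 domains of lowest GC content (81 higher in large intestine), 0.09 in the middle 202 (147 higher) and 0.15 in the 202 of highest GC content (162 higher). Across the 606 domains, which share both libraries, ratio and GC content had a Spearman rho of 0.46. When the ratio of peaks of 1 to 10 kb with the same GC content was subtracted, the median became -0.00272 and 296 domains were higher in large intestine, so that the surplus of domains higher in large intestine was lost. Of the 606 domains, 460 kept their sign.

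**Figure D4:**
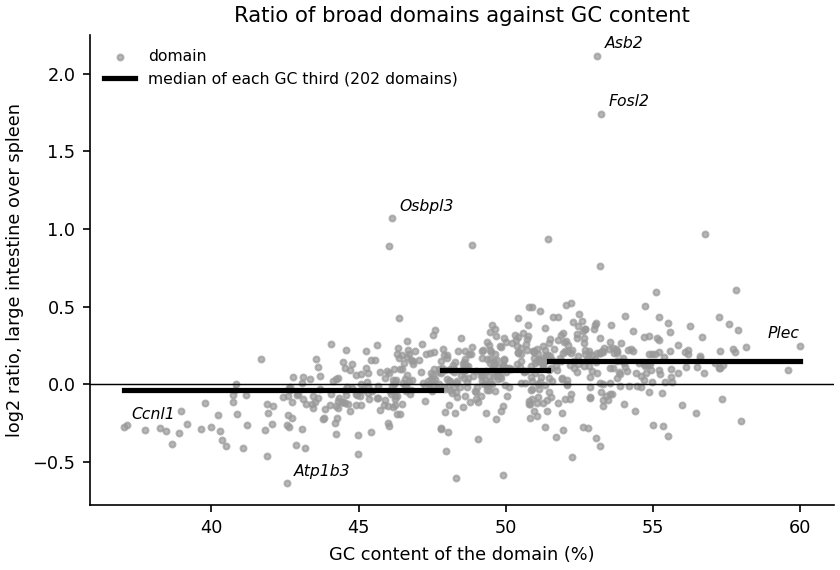
Log2 ratio of large intestine over spleen (vertical axis) against the GC content (%) of each of the 606 broad domains, with bars at the medians of the 202 domains of lowest, middle and highest GC content. The medians are -0.04, 0.09 and 0.15, and Asb2 (2.11) and Fosl2 (1.74) lie far above the domains of the same GC content.

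More than 2-fold higher signal in large intestine was found in 3 domains (0.495%) and more than 2-fold higher signal in spleen in 0. The 3 domains had 8.15, 9.57 and 9.88 RPKM in spleen, against a spleen median of 12.5 RPKM in peaks of 1 to 2 kb. Peaks of both tissues were merged, so these domains may have passed the length rule through the large intestine alone. Their count is therefore no separate support for a difference between the tissues. Over the whole table the same fold was passed by 9.00% of all peaks in large intestine and 9.65% in spleen, and among peaks of 1 to 10 kb by 1.81% and 0.817%. At 1.5-fold, 10 domains passed in large intestine and 2 in spleen, while 5.57% and 4.38% of peaks of 1 to 10 kb passed it. With 8000 bp as the least length, 9 of 1115 domains were more than 2-fold higher in large intestine, and with 15000 bp 0 of 160.

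The domain that differed most was that of Asb2 (ENSMUSG00000021200.14), which encodes the substrate-binding subunit of a ubiquitin ligase. It spanned 12180 bp at the 3′ end of the gene (chromosome 12, 103319209 to 103331388, minus strand). Spleen, with 8.15 RPKM, had the lowest value of all domains, and LI had 38.1 RPKM. The scaled difference was 4.33-fold (log2 ratio 2.11, counting interval 1.94 to 2.29; 1.95 after GC correction). The 13 other peaks around it ranged from 0.70 to 6.60 RPKM in spleen and from 9.35 to 32.2 RPKM in large intestine, and each was higher in large intestine, with log2 ratios between 1.01 and 3.22. Peaks of both tissues were merged, so peaks this low in spleen may have entered through the large intestine alone. Their direction is therefore no separate support for the difference.

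Fosl2 (ENSMUSG00000029135.10), a subunit of the transcription factor AP-1, had a domain of 11060 bp (chromosome 5, 32144888 to 32155947, plus strand) with 9.57 RPKM in SP and 34.3 RPKM in LI. The log2 ratio was 1.74 (1.57 to 1.92; 1.58 after GC correction), and the 4 other peaks of the locus had ratios between 1.44 and 2.35. These peaks had 1.22 to 4.41 RPKM in spleen, so the limit given for the Asb2 peaks holds for them too. Osbpl3 (ENSMUSG00000029822.15), of the oxysterol-binding protein family, had 9.88 RPKM in SP and 22.0 RPKM in LI over 11990 bp (chromosome 6, 50338372 to 50350361, minus strand), a log2 ratio of 1.07 (0.89 to 1.24). This domain lay in the middle of a long gene, 45.0 kb before its end.

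Below 2-fold stood Runx3, a transcription factor of cytotoxic and tissue-resident T cells, with 17.9 RPKM in SP and 36.6 RPKM in LI (log2 ratio 0.97; 0.76 after GC correction). Ehd1, an ATPase of endocytic recycling, had 11.2 and 22.6 RPKM (0.94). The other domains past 1.5-fold were Tex2 (0.90), Rora, a nuclear receptor (0.89), Man2a2, a mannosidase of glycan processing (0.76), Kdm6b, a histone H3 lysine 27 demethylase (0.61), and Wdr81 (0.60).

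In the other direction the differences were smaller. Atp1b3, a beta subunit of the sodium pump, had 19.3 RPKM in SP and 12.6 RPKM in LI (log2 ratio -0.64, counting interval -0.80 to -0.48). Ripor2, an inhibitor of RhoA, had 32.3 and 21.8 RPKM (-0.60). These were the 2 domains more than 1.5-fold higher in spleen before GC correction. Lrig1, which restrains growth factor receptors, had 30.8 and 21.1 RPKM (-0.58), Rasa3, a GTPase-activating protein of Ras and Rap, had 36.7 and 27.2 RPKM (-0.47), and Dnajc3, a co-chaperone of the endoplasmic reticulum, had 17.4 and 12.9 RPKM (-0.46). After GC correction the 5 ratios lay between -0.68 and -0.33. Atp1b3 (-0.54) then fell below 1.5-fold, while Ripor2 (-0.67), Lrig1 (-0.68) and Rasa3 (-0.62) were past it.

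**Figure D5:**
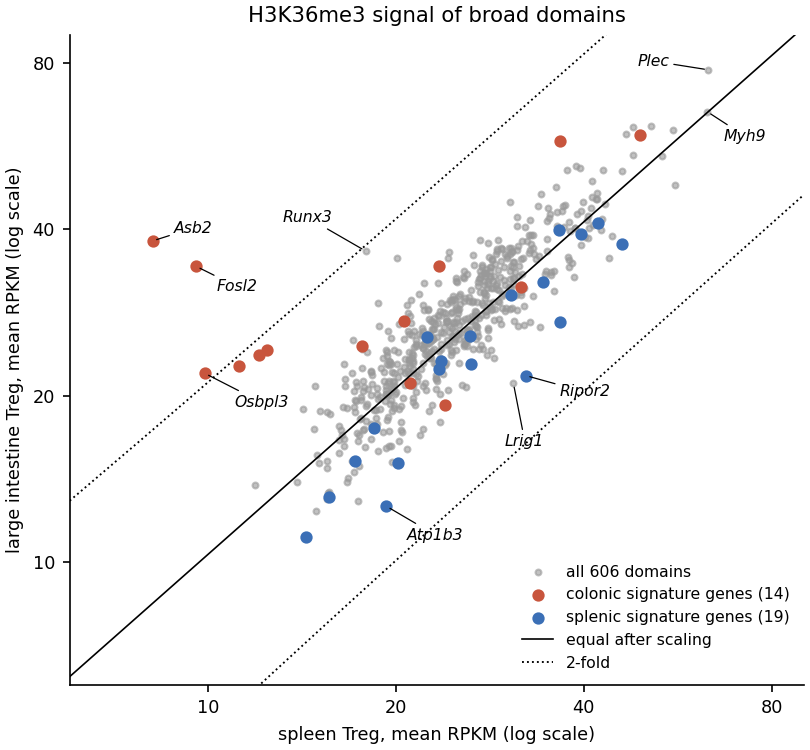
Mean RPKM of each of the 606 broad domains in large intestine (vertical axis) against spleen (horizontal axis), both on log scales, with the line of equal scaled signal and dotted lines at 2-fold. Asb2, Fosl2 and Osbpl3 lie above the upper 2-fold line, the 14 domains over colonic signature genes are in red and the 19 over splenic signature genes in blue.

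Broad domains over genes that differ in expression between splenic and colonic Treg cells were then set apart. The study took both lists from published expression data of other samples, and the study relates them to these H3K36me3 data itself, so the direction is not independent evidence. In the counts that follow, a marked gene is a coding gene, counted by symbol, to which a peak of at least 1 kb was assigned. Of 240 marked colonic signature genes, 14 (5.83%) carried a broad domain, against 555 (7.72%) of all 7190 marked genes. The 14 domains had a median log2 ratio of 0.55 (0.41 after GC correction), against 0.07 over all domains, with 11 higher in large intestine and 3 in spleen (390 and 216 of all 606 domains). Before GC correction they held 7 of the 10 domains more than 1.5-fold higher in large intestine, namely Asb2, Fosl2, Osbpl3, Ehd1, Tex2, Rora and Kdm6b. The log2 ratio of Kdm6b fell to 0.39 after it, below 1.5-fold. Bcl6, a transcriptional repressor, was an exception with 23.9 RPKM in SP and 19.2 RPKM in LI. The summed epithelial marker signal was also higher in large intestine, as given above, and its part in these ratios was not tested.

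Of 300 marked splenic signature genes, 16 (5.33%, against 7.72% of all marked genes) carried a broad domain. Their 19 domains had a median log2 ratio of -0.14 (-0.24 after GC correction), against 0.07 over all domains, with 17 higher in spleen and 2 in large intestine (216 and 390 of all 606). The longest were those of Kif21b, a kinesin (42.1 RPKM in SP and 41.1 RPKM in LI), and Rnf213 (26.3 and 25.6 RPKM), in which the tissues were close together. Prkcq, the protein kinase of T cell receptor signalling, had 20.1 and 15.1 RPKM, and Dgkz, a kinase that removes diacylglycerol, had 46.0 and 37.6 RPKM. Both domains past 1.5-fold in spleen before GC correction, Atp1b3 and Ripor2, were on this list. Lrig1, which was past it only after the correction, was not.

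Of 81 marked Treg and T cell genes, 18 (22.2%, against 7.72% of all marked genes) carried a broad domain. Of their 21 domains, 14 were higher in large intestine, a share close to the 390 of all 606, and the median log2 ratio was 0.08 (0.02 after GC correction), against 0.07 over all domains. Stat5a was not among the 18 genes, since the domain that held its end was assigned to Stat3. Among cytokine receptors, Il2rb, a chain of the interleukin-2 receptor on which Treg cells depend, had 53.3 RPKM in SP and 54.3 RPKM in LI (log2 ratio -0.02, -0.10 to 0.06). Il4ra had 41.2 and 49.0 RPKM (0.20), Il10ra had 29.5 and 36.8 RPKM (0.27), and Il6st, the shared chain of interleukin-6 family receptors, had 20.4 and 17.2 RPKM (-0.29). These 4 domains thus had ratios between -0.29 and 0.27.

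Among transcription factors, Rora had 12.4 RPKM in SP and 24.2 RPKM in LI over 19114 bp, and Ets1 had 37.9 and 34.2 RPKM (log2 ratio -0.19). Stat5b, which acts downstream of interleukin-2, had 27.9 and 28.5 RPKM (-0.02), and Runx1 had 18.3 and 21.8 RPKM (0.20). Cd4, the co-receptor that defines the lineage, had 19.4 and 21.1 RPKM over 15758 bp (0.07, -0.05 to 0.19). Cd5, an inhibitory surface receptor, had 37.7 and 35.6 RPKM (-0.13), and Ptprc, the phosphatase CD45, had 22.1 and 17.4 RPKM (-0.38; -0.11 after GC correction). Foxp3, Il2ra and Ctla4 had no broad domain, and their longest peaks were of 4093, 7476 and 3358 bp.

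Among genes that write, erase or read H3K36 methylation, 4 of 27 marked genes (14.8%, against 7.72% of all marked genes) carried a broad domain: the demethylase Kdm2a (23.2 RPKM in SP and 20.5 RPKM in LI), the readers Glyr1 (19.98 and 20.3 RPKM) and Brpf1 (24.7 and 25.6 RPKM), and the elongation factor Supt6 (28.3 and 32.7 RPKM). Their log2 ratios lay between -0.22 and 0.16. Setd2 was not among the 4, since the domain that held its end was assigned to Nbeal2.

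Splicing factors carried broad domains in 13 of 64 marked genes (20.3%, against 7.72% of all marked genes), with a median log2 ratio of 0.03, against 0.07 over all domains. The longest were those of Sf3b3 (25633 bp, 19.2 RPKM in SP and 19.6 RPKM in LI) and Prpf8 (21901 bp, 29.0 and 32.0 RPKM), and their ratios ran from -0.31 (Rbm39) to 0.16. Of 184 marked zinc finger genes with a Zfp symbol, Zfp831 was the only one with a domain (18.2 and 22.1 RPKM). Of 58 marked ribosomal protein genes, 0 had one. A gene shorter than 10 kb cannot hold a broad domain on its own, and these list shares were not adjusted for gene length. The count of 0 is therefore not read as a trait of the family.

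Among the chromosomes, 77 domains lay on chromosome 11 (11.6 per 100 coding genes with an assigned peak of at least 1 kb) and 65 on chromosome 5 (12.9 per 100). Chromosome X held 3 (2.97 per 100), over Rbm10, Flna and Sash3, with log2 ratios of 0.16, -0.34 and -0.10. The Y chromosome held 1, over the gene model Gm47283, at 35.9 RPKM in SP and 31.0 RPKM in LI. Both libraries pooled mice of both sexes.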

How the data were processed

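H3K36me3 ChIP-seq of splenic and large intestinal Treg cells was analysed, with 1 library each. Single-end reads were aligned to mm10, and the authors called peaks with MACS2 against input on the Galaxy platform. They merged the peaks of both tissues with bedtools, so a merged peak may be long through the calls of only 1 tissue. RPKM-scaled coverage was then averaged over each merged peak. The deposited values are therefore mean RPKM and not counts, although their table is named as counts, so no count test was run.

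Here, peaks of at least 10000 bp were kept and both columns were scaled to their sums over all peaks. Log2 ratios used a pseudocount of 0.5 RPKM, which understates the change of low values. Counting intervals (95%) were approximate. Steps of 1 read in a bin, assumed to be 20 bp wide, were inferred from the values (whole within 0.1 in over 99% of peaks). Each read was taken to cover 200 bp. Intervals cover counting error only. Genes, exons and ends came from GENCODE M21, and GC content from GRCm38. Correction for GC subtracted the median ratio of peaks of 1 to 10 kb in 20 GC bins.

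Named domains were the 10 longest, the 5 highest and 5 lowest ratios, the 5 with the highest scaled mean of both libraries, the 5 reaching farthest past the gene end, the 5 over most genes, 3 on either side of the length limit, and examples of each list by length; other names (Cd2, Jak3, Kmt2b, Ncln, the genes shorter than their domain, those past 1.5-fold and similar) were chosen after their values were seen. Some items these rules name are not reported here. The members and lists were chosen with earlier results of these data known. The alternatives tried were other scalings and centring, other pseudocounts, GC correction, other length limits, joined peaks, other gene models and assignments, and subsets of the domains. Scripts were tested on simulated data. Python 3.11.15, numpy 2.4.6, pandas 2.3.3, scipy 1.17.1 and pysam 0.24.0 were used. No p-value was computed, since regions are not replicates.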

Additional observations from a re-analysis of the deposited data

How the results depend on the processing

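No paired analysis was possible because each tissue had 1 library, and for the same reason no replicate could be left out. The median log2 ratio was 0.12 with the deposited scaling and 0.034 with length-weighted scaling, and it turned to -0.00272 after GC correction and to -0.040 with GC correction and length-weighted scaling together. More than 2-fold higher in large intestine were 9 domains at a least length of 8000 bp and 0 at 15000 bp. Median signal was 23.1 RPKM in SP and 25.2 RPKM in LI at 8000 bp and 26.1 and 28.3 RPKM at 15000 bp. With genes of all types, 51.0% of domains held a gene end and 20.5% a gene start, and at 8000 bp 36.6% held a coding gene end. Joining neighbouring peaks within 200, 500 or 1000 bp, an alternative chosen after seeing the data like the combined correction, the removal of Gm gene models and of the 2 domains farthest from 0, gave 1514, 2995 and 4123 domains. Of 69 values recomputed for the main results, 53 lay inside the 95% interval around the main value, within 1 percentage point for the share of bases in genes, or within 1.5 times a count. Of 102 for single named domains 75 did, and 5 whose counting interval lay above 0 turned below 0 after GC correction: Prrc2b (-0.077), Akna (-0.091), Unk (-0.023), Gse1 (-0.086) and Coro7 (-0.028). The causes were not tested, apart from the fewer or more domains that another length leaves. The lowest domain had about 294 reads in spleen, with 200 bp taken per read, and a counting standard error of 0.09 for its log2 ratio. The spread between libraries could not be measured, so counting error was not set against it.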
